A study of Mus musculus with 2 samples.

Results

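The E11.5 AGM VE-cadherin-negative pool consisted of cells from the aorta-gonad-mesonephros (AGM) region of wild-type C57Bl/6 mouse embryos at E11.5 (embryonic day) that did not stain for VE-cadherin, the adhesion protein of endothelial junctions encoded by Cdh5. Its members were the wells whose deposited annotation names the AGM and the negative gate and in which at least 500 genes had a count. Of 339 such wells, 338 were kept, out of 2644 kept wells in all 8 sorted pools of the study. The well left out had 371 genes, and the kept wells with the fewest genes had 537, 541 and 557.

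The study sorted AGM and yolk sac cells of E9.5 and E11.5 embryos into VE-cadherin-positive and VE-cadherin-negative cells that excluded 7AAD, a dye of dead cells. Single cells were then chosen by imaging on ICELL8 nanowell chips, 1 chip per stage, so stage and chip cannot be told apart. The pool was compared with the 287 VE-cadherin-positive AGM wells of E11.5, the 379 VE-cadherin-negative yolk sac wells of E11.5 and the 354 VE-cadherin-negative AGM wells of E9.5, all 7AAD-negative and wild type. On both chips live single cells stained with Hoechst were selected. The number of embryos behind a pool is not given in the sources used here. Each pool is 1 sample, so no test across samples was made. Intervals are exact at 95% and reflect counting error alone. Each chip also carried negative control wells, and positive control wells that received E14FF mouse embryonic stem cell RNA.

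The AGM is the trunk region in which the dorsal aorta runs between the embryonic kidneys and gonads, and in which the first haematopoietic stem cells arise from aortic endothelium. The cells around the aorta are derived from somites, lateral and intermediate mesoderm, the coelomic lining and neural crest. They are known as the microenvironment that supplies signalling proteins and matrix to the endothelium.

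The wells of the pool held a median of 2806.5 counts (893 to 18310) over a median of 1295 genes (537 to 5066), and 1093602 counts in all. Haemoglobin genes took a median of 3.45% of a well's counts, against 25.6% in the VE-cadherin-positive AGM wells and 31.5% in the yolk sac wells. Levels were therefore taken as CPM (counts scaled to a common total) of the 807480 counts outside haemoglobin, mitochondrial and ribosomal RNA rows, of which a well held a median of 2083.5. The medians were 1035 in the VE-cadherin-positive AGM wells, 1683 in the yolk sac wells and 3390 in the E9.5 wells. CPM levels are of a gene in a pool and are not corrected for gene length. A lower level in a pool cannot tell fewer cells of a type from less RNA per cell. The 47 negative control wells of the E11.5 chip held a median of 329 counts, and none of them reached 500 genes.

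Cdh5 itself gave 14 counts in 13 of the 338 wells (3.85%, 17.3 CPM), against 345 counts in 143 of 287 wells (49.8%, 850 CPM) of the VE-cadherin-positive AGM pool. The log2 ratio was -5.62 (-6.50 to -4.85). All 11 endothelial genes with at least 20 counts were at least 2-fold lower in the negative pool, against 10.6% of all 7540 genes tested. Among them were Pecam1, Kdr, Tek and Tie1. Each of the 11 reached 20 counts in the VE-cadherin-positive pool alone, so the count rule favoured a lower call. At least 1 endothelial marker had a count in 67 wells, while 12 wells had at least 2 and 2 wells had at least 3. The list gave 0.260 counts per well in the pool, against 0.191 in the negative control wells, where no well of 47 had 2 of the genes.

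Col12a1 (a collagen of fibril surfaces), Nfia (a nuclear factor I transcription factor), Twist1 (a mesenchymal transcription factor) and Crabp1 (a cytoplasmic retinoic acid binding protein) are the genes listed here as markers of the pool. In the GENCODE annotation of mm10 (GRCm38), Col12a1 lies at chr9:79598991-79718831 on the minus strand and Crabp1 at chr9:54764748-54773110 on the plus strand. Nfia spans chr4:97772734-98118874 and Twist1 chr12:33957671-33959829, both on the plus strand.

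Nfia was the most widespread of the 4 in the pool, with 587 counts in 63.6% of wells (727 CPM). Its levels were 397 CPM in the VE-cadherin-positive AGM pool, 321 CPM in the yolk sac pool and 28.2 CPM in the E9.5 pool. Crabp1 had 397 counts in 42.6% of wells (492 CPM), against 22.2 CPM in the VE-cadherin-positive AGM pool, 16.0 CPM in the yolk sac pool and 549 CPM in the E9.5 pool. Crabp1 was thus high in both AGM negative pools, whereas Nfia was higher in each of these E11.5 pools than in the E9.5 pool. The positive control wells held 7 counts of Nfia on the E11.5 chip and 2 on the E9.5 chip.

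Col12a1 had 158 counts in 27.8% of wells (196 CPM). It stood at 14.8 CPM in the VE-cadherin-positive AGM pool, at 411 CPM in the yolk sac negative pool and at 5.34 CPM in the E9.5 pool. Twist1 had 58 counts in 12.1% of wells (71.8 CPM), against no count in the VE-cadherin-positive AGM pool, 1 count in the yolk sac pool and 54.1 CPM in the E9.5 pool. The negative control wells of the E11.5 chip held 2 counts of Col12a1, 2 of Nfia, 1 of Crabp1 and none of Twist1.

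None of the 4 genes told the pool apart from all 3 other pools by a 2-fold margin. Col12a1 was lower than in the yolk sac pool, with a log2 ratio of -1.07, or -0.39 when totals of all counts, haemoglobin included, set the scale. Nfia was 0.87 above the VE-cadherin-positive AGM pool on the log2 scale, under 2-fold, and 1.503 with totals of all counts. The log2 ratios over the E9.5 pool were 0.41 for Twist1 and -0.16 for Crabp1. At least 2 of the 4 genes were counted in 66 of 310 wells thinned to 1000 counts (21.3%), against 2.69% of VE-cadherin-positive AGM wells, 7.49% of yolk sac wells and 2.83% of E9.5 wells. Within the pool the median Pearson r of their 6 pairs over the 338 wells was 0.04, against 0.01 over all gene pairs. The highest was 0.16, for Nfia and Twist1, just above the 99th percentile of all gene pairs (0.154). Crabp1 and Col12a1 gave -0.05.

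**Figure D1:**
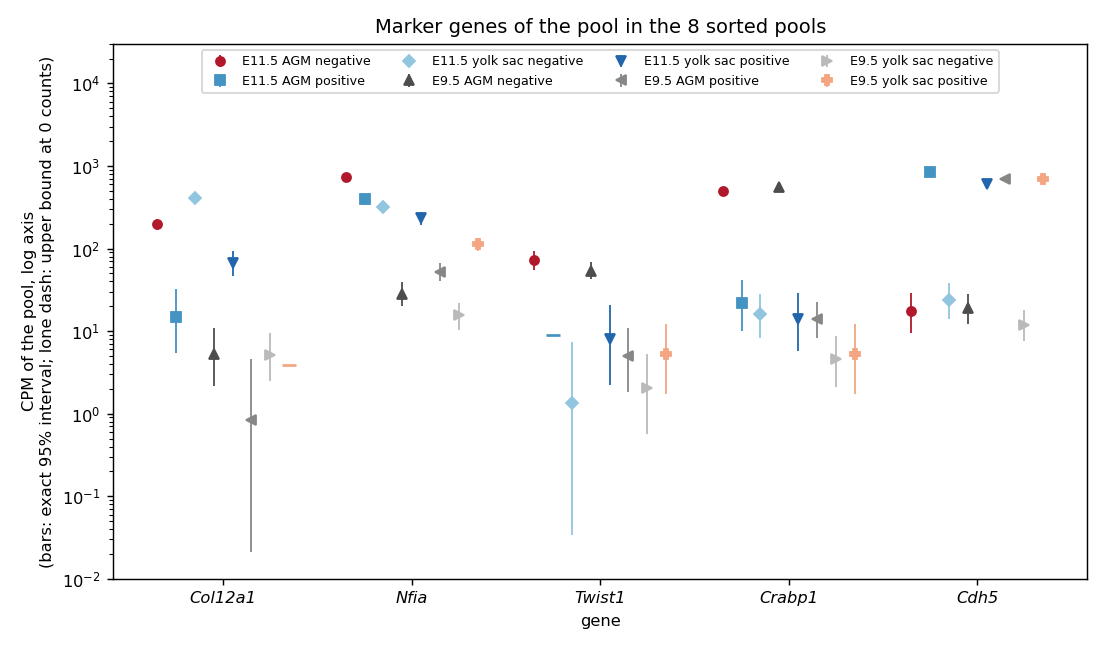
Level of the 4 marker genes and Cdh5 in the 8 sorted pools, in CPM on a log axis, with exact 95% intervals as bars and a dash at the upper bound where a pool had 0 counts. Crabp1 and Twist1 are high in both AGM negative pools, Nfia is at 727 CPM in the E11.5 AGM negative pool against 28.2 CPM at E9.5, and Cdh5 is at 11.9 to 23.9 CPM in the VE-cadherin-negative pools.

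To compare wells of different depth, each well was thinned at random to 1000 counts outside the haemoglobin, mitochondrial and ribosomal RNA rows, and a well was counted for a cell type when it kept counts of at least 2 of that type's marker genes. This left 310 wells of the pool, with 28 too shallow. It left 149 VE-cadherin-positive AGM wells (138 too shallow), 347 yolk sac wells (32 too shallow) and all 354 E9.5 wells. Median depths of these wells before thinning were 2167.5, 1628, 1809 and 3390 counts in that order.

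Mesenchymal genes were the most widespread, in 214 of 310 wells (69.0%, 63.6 to 74.1), against 16.1% of VE-cadherin-positive AGM wells, 100% of yolk sac wells and 11.9% of E9.5 wells. The skeletogenic list, genes of the sclerotome and of early cartilage, reached 98 wells (31.6%, 26.5 to 37.1), against 2.01% of VE-cadherin-positive AGM wells, 24.5% of yolk sac wells and 5.37% of E9.5 wells. Skeletal muscle and dermomyotome genes reached 34 wells (10.97%, 7.72 to 15.0), against 3.36% of VE-cadherin-positive AGM wells, 0.288% of yolk sac wells and 3.11% of E9.5 wells. Mesenchymal genes thus reached most wells, skeletogenic genes fewer and muscle genes fewer still. A well could count for several lists, so these shares do not give the cell type make-up of the pool.

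Smooth muscle and pericyte genes reached 30 wells (9.68%, 6.63 to 13.5), against 0.671% of VE-cadherin-positive AGM wells, 66.6% of yolk sac wells and 1.41% of E9.5 wells. Neuron genes reached 21 wells (6.77%, 4.24 to 10.2), against 2.01% of VE-cadherin-positive AGM wells, 0.288% of yolk sac wells and 5.37% of E9.5 wells. The neuron share of the pool was 3.23% when 3 genes were required, and 19.5% in unthinned wells with 2 genes. The intervals of the neuron shares overlapped between this pool and the E9.5 negative pool (3.26 to 8.26).

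Genes of the remaining types reached few wells. Neural progenitor genes reached 2 wells (0.645%), neural crest and sympathetic genes 2 wells, mesonephric epithelium genes 2 wells, other epithelial genes 3 wells (0.968%), coelomic and gonadal genes 5 wells (1.61%) and macrophage genes 4 wells (1.29%). No well of 310 had counts of 2 primordial germ cell genes, which allows a share of such wells of up to 1.18%, and before thinning 35 of 338 wells had 1 of them. These values do not bound the number of germ cells. Genes of the visceral endoderm and liver reached 17 wells (5.48%), against 14.1% of VE-cadherin-positive AGM wells and 84.4% of yolk sac wells on the same chip and no E9.5 well. Afp, of this list, had 38 counts in the positive control wells of the E11.5 chip and 0 in those of the E9.5 chip.

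**Figure D2:**
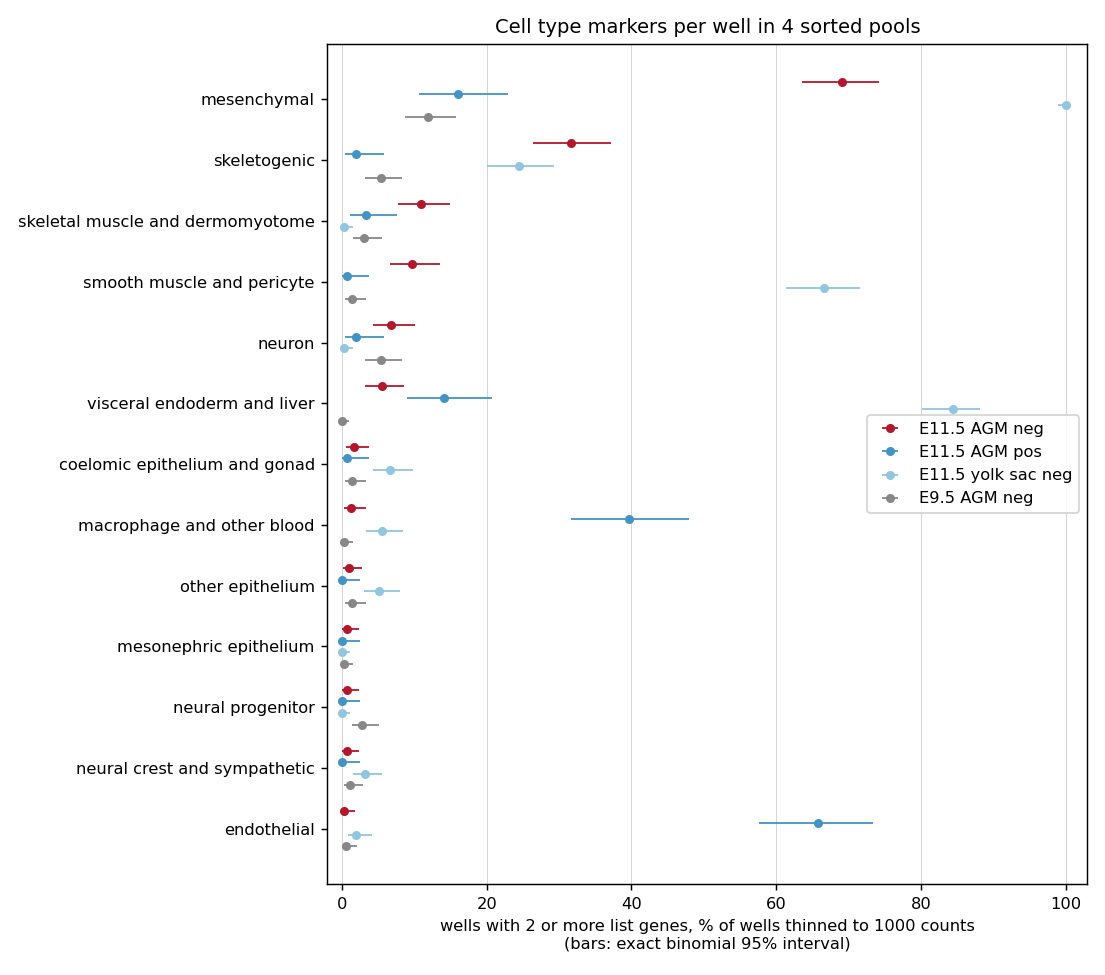
Percent of wells, each thinned to 1000 counts, that kept counts of at least 2 genes of a cell type list, in the E11.5 AGM negative pool and 3 other pools, with exact binomial 95% intervals as bars. The E11.5 AGM negative wells lead for skeletogenic (31.6%) and skeletal muscle genes (10.97%), and stand at or near 0 for endothelial and macrophage genes.

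Some of these genes also had counts in negative control wells. The visceral endoderm and liver list gave 0.876 counts per well in the pool, against 1.17 in the 47 negative control wells of the E11.5 chip. The macrophage list gave 0.246 in the pool against 0.319 there, and the erythroid list 0.293 against 0.234. These 3 lists thus had about as many counts per well in the negative control wells as in the pool. Mesenchymal genes gave 6.87 counts per well in the pool against 1.13 in the control wells, of which 12 had at least 2 of the genes. The collagen genes Col1a1, Col1a2 and Col3a1 alone had 9, 14 and 15 counts there. The part of such RNA in the mesenchymal share was not tested. The skeletogenic list gave 4.03 counts per well in the pool against 0.170 in the control wells, the muscle list 2.96 against 0.0426 and the neuron list 1.34 against 0.0213. Ttn, Actc1, Col2a1, Dcc and Map2 had no count in the control wells.

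Types overlapped within wells. In a second thinning draw, which left 203 mesenchymal, 90 skeletogenic, 37 muscle, 31 smooth muscle and 25 neuron wells, 144 of 310 wells (46.5%) had 2 genes of exactly 1 of these 5 types, 92 (29.7%) of 2 types and 56 (18.1%) of none. Of the 90 skeletogenic wells 60 (66.7%) also counted as mesenchymal, and of the 25 neuron wells 13 (52%), against 65.5% of all wells. Markers of these types thus did not sort the wells into separate classes at this depth.

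Mesenchymal genes. Prrx1 and Twist1, transcription factors of limb and trunk mesenchyme, and Pdgfra, a growth factor receptor of mesenchymal cells, were well above the VE-cadherin-positive AGM pool. Of the mesenchymal list, 10 of 12 genes with at least 20 counts were at least 2-fold higher and none was lower, with a median log2 ratio of 2.05, against 0.23 over all 7540 genes tested, of which 20.2% were called higher. Prrx1 had 138 counts in 21.9% of wells (171 CPM), against 12.3 CPM in the VE-cadherin-positive AGM pool. Pdgfra had 273 counts in 45.3% of wells (338 CPM), against 36.9 CPM.

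Against the yolk sac negative pool the list split. Prrx1, Twist1 and Meox2 (a homeobox gene of somites) were higher, and 8 of 13 genes were lower, the fibrillar collagens most. Col1a1, the chain of the main collagen of connective tissue, had 514 CPM in the pool and 7026 CPM in the yolk sac pool, a log2 ratio of -3.77 (-3.92 to -3.63). Lum, a proteoglycan of collagen fibrils, had 118 CPM against 1380 CPM. Of 7850 genes tested, 17.6% were called higher and 11.3% lower. Prrx1 stood at 6.65 CPM in the yolk sac pool, a log2 ratio of 4.68 (3.43 to 6.33). Of the 14 fibrillar and associated collagens 11 were lower than in the yolk sac pool and Col2a1, Col26a1 and Col9a1 were higher. The transcription factors of the list did not move as 1 group, since Tcf21 was lower (12.4 CPM against 77.1 CPM) and Twist2 was 0.90 above the yolk sac pool on the log2 scale, under 2-fold.

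Against the E9.5 pool 9 of 13 mesenchymal genes were higher and none lower, with a median log2 ratio of 2.28, against 0.10 over all 8652 genes tested, of which 16.1% were called higher. Of the 14 fibrillar and associated collagens, 13 were higher than at E9.5. Col1a1 had 514 CPM against 50.3 CPM at E9.5. Col3a1 had 693 CPM against 143 CPM. Among the transcription factors of the list Prrx1 was 1.72 higher on the log2 scale, while Twist1, Twist2 and Meox2 were under 2-fold apart, at 0.41, 0.65 and 0.50.

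Collagen counts were low and even over wells. Col3a1 had 560 counts in 230 wells and no more than 17 in any, and Col1a1 415 counts in 202 wells and no more than 7. Over wells Col1a1 and Col1a2, which encode the chains of 1 protein, gave r of 0.06, and Col1a1 and Col3a1 0.19. The 99th percentile of all gene pairs was 0.154.

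Smooth muscle and pericyte genes. Acta2 and Tagln are proteins of the contractile apparatus and Myl9 its regulatory light chain. Of 8 genes with at least 20 counts 7 were higher than in the VE-cadherin-positive AGM pool. Against the yolk sac pool 1 of 9 was higher and 6 were lower, and against the E9.5 pool 5 of 9 were higher and 1 was lower. Of all genes tested 20.2%, 17.6% and 16.1% were called higher in these comparisons, and 10.6%, 11.3% and 10.5% lower. Acta2 had 208 counts in 104 wells (258 CPM), against 73.9 CPM in the VE-cadherin-positive AGM pool, 2237 CPM in the yolk sac pool and 67.1 CPM at E9.5. The highest well for Acta2, with 32 counts, was muscle well 1, described with the muscle genes. Acta2 and Tagln gave r of 0.06 over wells, with counts of both in 14.

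Skeletogenic genes. Sox9 sets the chondrogenic programme, Sox5 and Sox6 act with it on cartilage genes, Col2a1 encodes the main cartilage collagen, and Pax1 and Pax9 mark the sclerotome, the part of the somite that forms vertebrae and ribs. Of 8 genes of this list with at least 20 counts, all 8 were higher than in the VE-cadherin-positive AGM pool, 6 than in the yolk sac pool and 7 than in the E9.5 pool, and none was lower in any. The shares of all genes called higher were 20.2%, 17.6% and 16.1%. The median log2 ratios of the list were 2.62, 3.24 and 2.05, against 0.23, 0.22 and 0.10 over all genes tested. Each of the 8 genes reached 20 counts in this pool, and none entered through another pool alone, so the count rule favoured a higher call.

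Col2a1 had 373 counts in 161 wells (462 CPM), against 51.7 CPM in the VE-cadherin-positive AGM pool, 113 CPM in the yolk sac pool and 94.5 CPM in the E9.5 pool. Its log2 ratios were 3.16 (2.53 to 3.87), 2.03 (1.69 to 2.39) and 2.29 (1.99 to 2.59) in that order. Pax9 had 37 counts in 23 wells (45.8 CPM), no count in the VE-cadherin-positive AGM pool, 1 in the yolk sac pool and 12.2 CPM at E9.5. Col2a1 was thus in 47.6% of the wells and Pax9 in 6.81%.

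Sox5 and Sox6 did not set the pool apart from the yolk sac pool. Sox5 had 477 counts in 168 wells (591 CPM), against 625 CPM in the yolk sac pool and 105 CPM at E9.5. Sox6 had 246 counts in 106 wells (305 CPM), against 545 CPM in the yolk sac pool and 139 CPM at E9.5. Sox5 and Sox6 gave r of 0.37, the third highest of 7990003 pairs, with counts of both in 75 wells. Col2a1 gave 0.29 with Sox5, 0.24 with Sox6 and 0.27 with Col9a1, a cartilage collagen outside the list. Over the E9.5 negative wells the r was 0.17 for Sox5 with Sox6, 0.01 for Col2a1 with Sox5, 0.11 with Sox6 and 0.01 with Col9a1.

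Across the 15 pairs of skeletogenic genes in at least 10% of this pool's wells the median r was 0.121, against 0.01 over all its pairs. The same pairs gave -0.01 in the VE-cadherin-positive AGM wells, 0.02 in the yolk sac wells and 0.07 in the E9.5 wells. The genes were chosen by detection in this pool, and depth differs between pools. These values thus do not show co-variation particular to the pool. Of the 5 genes with the highest r to Col2a1 among all 3998 genes in at least 10% of wells, 3 were Sox5, Col9a1 and Sox6. The other two were Sorbs2 (0.26) and Wwp2 (0.23), a ubiquitin ligase known from mouse cartilage. Sox5 and Sox6 are very long genes, and the share of a well's counts in genes over 100 kb, which ran from 8.12% to 44.1% over wells, gave r of 0.26 with Sox5, 0.30 with Sox6 and 0.05 with Col2a1. The part of that share in the Sox5 and Sox6 correlation was not tested.

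The wells richest in these genes, chosen here by their counts and given as a description, were 8 wells with at least 6 of 10 genes. Skeletogenic well 1 held 19 counts of Sox5, 14 of Col2a1 and 5 of Sox9. Skeletogenic well 7 held 21 of Sox5, 11 of Sox6, 6 of Col2a1, 5 of Sox9, 5 of Pax9 and 3 of Pax1. Skeletogenic well 8 held 10 of Sox6, 8 of Sox5 and 7 of Col2a1. Wells 1 and 7 were deep, with 15230 and 9349 counts outside the left-out rows, and carried 9 mesenchymal genes each as well.

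Skeletal muscle and dermomyotome genes. Pax3 and Pax7 mark the dermomyotome and muscle progenitors, Myod1 and Myog are the transcription factors that start differentiation, and Ttn, Neb, Actc1, Myl1, Myl4 and the troponins Tnnt1 and Tnnt2 build the sarcomere. All 10 such genes with at least 20 counts were higher than in the VE-cadherin-positive AGM pool (median log2 3.66). None of the 10 had 20 counts in that other pool, so the count rule favoured a higher call. Against the yolk sac pool 10 of 11 were higher (median 3.90), with Des lower. Of 11 against the E9.5 pool 8 were higher and Pax3 and Des were lower (median 1.52). Over all genes tested 20.2%, 17.6% and 16.1% were called higher in these comparisons, with medians of 0.23, 0.22 and 0.10, and 11.3% were called lower than in the yolk sac pool and 10.5% lower than at E9.5.

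Ttn, the giant spring protein of the sarcomere, had 470 counts in 115 wells (582.1 CPM), against 41.9 CPM in the VE-cadherin-positive AGM pool, 46.5 CPM in the yolk sac pool and 36.6 CPM at E9.5. Its log2 ratios were 3.80 (3.10 to 4.59), 3.65 (3.15 to 4.18) and 3.99 (3.56 to 4.45). Actc1, the cardiac actin that embryonic skeletal muscle also uses, had 126 counts in 47 wells (156 CPM), no count in the VE-cadherin-positive AGM pool, 7.98 CPM in the yolk sac pool and 74.7 CPM at E9.5. Against a floor of 3 counts in the VE-cadherin-positive AGM pool its log2 ratio was 4.40, with a lower 95% bound of 4.08. Both genes were thus far above the other E11.5 pools, and Actc1 was 1.06 above E9.5. That last call rests on 1 well: without muscle well 1, described with the other muscle wells, Actc1 had 63 counts (78.8 CPM) and its log2 ratio over E9.5 was 0.08 (-0.40 to 0.55).

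Progenitor and early differentiation genes differed in direction between stages. Pax3 had 20 counts in the pool (24.8 CPM) against 117 at E9.5 (89.2 CPM), a log2 ratio of -1.85 (-2.61 to -1.16). Pax7 had 21 counts (26.0 CPM) against 8 (6.10 CPM), 2.09 (0.86 to 3.48). Myog had 23 counts (28.5 CPM) against 13 (9.91 CPM), 1.52 (0.48 to 2.63). Meox1, a dermomyotome homeobox gene, had 59.4 CPM against 110 CPM at E9.5, under 2-fold apart. Pax3 was thus higher at E9.5, and Pax7, Ttn, Neb, Tnnt1 and Myl4 at E11.5, with or without muscle well 1. Myog had 19 counts without that well, too few for a call.

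Few wells held most of the sarcomere RNA. The 4 wells with the most Ttn held 285 of its 470 counts (60.6%), and 79 wells had 1 count only. For Actc1 the top 4 wells held 60.3%, for Neb 65.9%, and for the embryonic myosin Myh3 and the troponin Tnnc1 74.0% and 78.1%. A pool level of these genes therefore rests on those few wells. Without muscle well 1 the list's genes called higher than at E9.5 numbered 5 of 9, against 8 of 11 with it. Actc1 was then under 2-fold, and Myl1 and Myog had fewer than 20 counts. Those higher were 8 of 8 over the VE-cadherin-positive AGM pool and 8 of 9 over the yolk sac pool, and Ttn stood 3.47, 3.31 and 3.66 above the 3 pools on the log2 scale.

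Muscle well 1, with 7507 counts outside the left-out rows, had 12 of the 16 muscle genes. It held 100 counts of Ttn, 63 of Actc1, 36 of Neb, 23 of Myl4, 14 of Myl1, 10 of Tnnt1, 6 of Tnnt2, 4 of Myog and 2 of Myod1. Its row for Mymk, the fusion protein listed there under the older symbol Tmem8c, had 4 counts. It also held 32 counts of Acta2, the smooth muscle actin, and 11 of Nes. Acta2 and Actc1 encode closely similar actins, and how reads shared by such genes were counted is not given in the sources used here.

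Muscle wells 2, 4 and 5 held 41, 84 and 60 counts of Ttn. Well 2 had 2 counts of Myod1 and 4 of Myl4, well 4 had 8 of Neb, and well 5 had 7 of Neb and 1 of Myog. Muscle well 3 differed, with 4 counts of Pax7, 2 of Myog, 7 of Actc1 and only 2 of Ttn. Muscle well 6 was the deepest at 12614 counts and mixed 5 muscle genes with 7 mesenchymal ones, among them 11 counts each of Prrx1 and Col3a1. Wells 1 to 5 had 1 to 3 mesenchymal genes. Doublet scores marked none of the 6 wells.

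**Figure D3:**
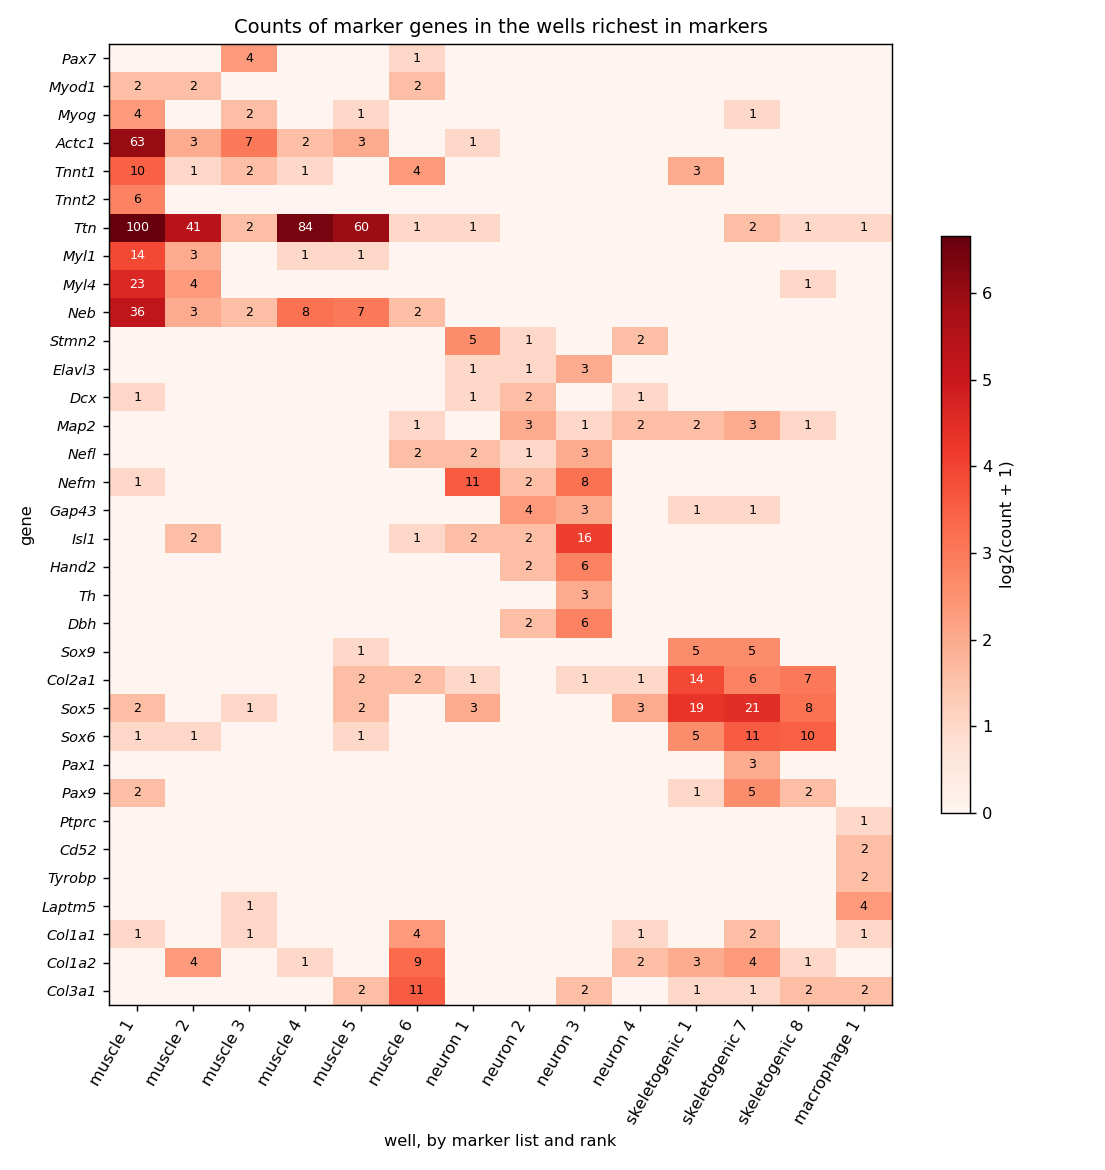
Counts of marker genes (rows) in the wells with the most genes of a list (columns), printed in the cells and coloured by log2(count + 1). Ttn has many counts in muscle wells 1 to 5 except well 3, where Actc1 and Pax7 have more. Hand2 and Dbh sit in neuron wells 2 and 3, and Sox5, Sox6 and Col2a1 in the skeletogenic wells.

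The 250 bases before the RefSeq start of 3 sarcomere genes are given because all 3 had their highest count in muscle well 1 and each window holds a motif known from muscle gene regulation. The sequences are RefSeq's on GRCm38.p6, all on the minus strand, and capitals mark the motif. The window of Ttn, at chr2:76982548-76982797, holds a MEF2 motif that begins at -166 from the start. That of Actc1, at chr2:114052876-114053125, holds a CArG box of serum response factor at -47. That of Myl1, at chr1:66945057-66945306, holds the E-box CAGCTG at -224. In the GENCODE annotation the Ttn gene ends at 76982547, next to its window, while Actc1 reaches 114053548 and Myl1 66945404, so that the windows of Actc1 and Myl1 lie inside those gene spans.
Ttn: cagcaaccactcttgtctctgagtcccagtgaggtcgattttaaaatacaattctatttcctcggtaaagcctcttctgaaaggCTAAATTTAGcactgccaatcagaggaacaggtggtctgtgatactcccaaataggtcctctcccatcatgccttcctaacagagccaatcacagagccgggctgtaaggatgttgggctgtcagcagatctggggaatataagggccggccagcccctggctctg
Actc1: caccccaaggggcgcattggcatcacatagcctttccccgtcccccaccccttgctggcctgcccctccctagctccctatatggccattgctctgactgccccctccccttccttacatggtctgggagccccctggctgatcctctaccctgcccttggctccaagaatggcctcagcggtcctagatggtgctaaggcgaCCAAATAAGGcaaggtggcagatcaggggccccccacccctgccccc
Myl1: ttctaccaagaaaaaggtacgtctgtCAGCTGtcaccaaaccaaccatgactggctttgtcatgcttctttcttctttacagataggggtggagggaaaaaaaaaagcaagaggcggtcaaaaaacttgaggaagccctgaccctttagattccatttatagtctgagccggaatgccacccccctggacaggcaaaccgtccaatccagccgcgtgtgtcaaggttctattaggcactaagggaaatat

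Both strands were searched for the 3 motifs. CAGCTG occurred in 13% of the 32851 windows of all genes, the MEF2 motif in 2.92% and the CArG box in 1.47%. Of 17 muscle list genes 11 had a window, and CAGCTG was in 4 of them (Chrna1, Des, Myl1 and Tnnt2), the MEF2 motif in that of Ttn and the CArG box in that of Actc1. Windows without a motif show only that these letters are not in those 250 bases.

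Neural genes. Stmn2, Dcx and Map2 act on the microtubules of neurons, Nefl and Nefm are neurofilaments, Gap43 is a growth cone protein, Isl1 a homeobox factor of motor, sensory and sympathetic neurons and Dcc the netrin receptor of growing axons. Of 8 neuron genes with at least 20 counts, 6 were higher than in the VE-cadherin-positive AGM pool and Stmn2 was lower. All 8 were higher than in the yolk sac pool. Each of the 8 reached 20 counts in this pool, and none entered through another E11.5 pool alone. The count rule thus favoured a higher call. Of 13 against the E9.5 pool 4 were higher (Dcx, Map2, Nefl and Isl1) and Stmn3 and Crmp1 were lower, with a median log2 ratio of 0.39. Over all genes tested 20.2%, 17.6% and 16.1% were called higher in these comparisons, and 10.5% lower than at E9.5, so the 2 lower neuron genes of 13 are near the share of all genes.

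Dcc had 135 counts in 71 wells (167 CPM), against 2 counts in the VE-cadherin-positive AGM pool, 2 in the yolk sac pool and 182 at E9.5 (139 CPM). Its log2 ratio over the yolk sac pool was 5.97 (4.09 to 9.03). Nefm had 62 counts in 37 wells (76.8 CPM), against 2.46 CPM in the VE-cadherin-positive AGM pool, 13.3 CPM in the yolk sac pool and 58.7 CPM at E9.5. Neither gene was 2-fold apart between the stages. Dcc is expressed outside neurons too, and over wells it gave r of -0.02 with Stmn2.

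Neuron wells, chosen here by their counts, differed in the genes counted beside the neuron markers. The 4 wells richest in neuron genes had 9, 8, 8 and 6 of 15. Neuron well 1 held 11 counts of Nefm, 6 of Nhlh2 and 5 of Stmn2, together with 39 of Spint2, a protease inhibitor of epithelia. Neuron well 2 held 4 counts of Gap43 and 3 of Map2 with 2 each of Hand2 and Dbh. Neuron well 3 held 16 counts of Isl1 and 8 of Nefm with 6 of Hand2, 6 of Dbh and 3 of Th.

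Hand2 is a transcription factor that sympathetic neurons use, and Th and Dbh are enzymes of noradrenaline synthesis. Dbh had counts in no other well of the pool, and Th only in neuron well 3. Neuron wells 1 and 4 had no count of Hand2, Th or Dbh. With 3087 and 2181 counts outside the left-out rows, this does not show that those cells lacked them. Hand2 was also counted outside neuron wells, with 31 counts in 20 wells, and was lower than in the yolk sac pool (38.4 CPM against 321 CPM). One other well held Sox10 and Ednrb, genes of migrating neural crest, with 1 and 3 counts.

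Neural progenitor genes were counted in few wells, with at least 1 of 8 in 79 of 338 wells and at least 2 in 6. Of these 8, none of the 5 with at least 20 counts was higher than at E9.5, and Pax6, Dll1 and Neurog2 were lower. Pax6, Dll1 and Neurog2 had 1, 3 and 3 counts in the pool and so entered through their E9.5 counts alone, which favours a lower call. Nes, an intermediate filament of neural and muscle progenitors, had 69 counts in 40 wells, of which the highest was muscle well 1. Zic1, a zinc finger transcription factor of the neural tube and somites, had 31 counts in 27 wells (38.4 CPM), against 4.93 CPM in the VE-cadherin-positive AGM pool, 1.33 CPM in the yolk sac pool and 21.4 CPM at E9.5. Nes and Zic1, the genes of the list with at least 20 counts at E11.5, were both higher than in the yolk sac pool, and Zic1 was also higher than in the VE-cadherin-positive AGM pool.

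Epithelial genes. Wt1, of the coelomic lining and the gonadal ridge, and Aldh1a2, the retinoic acid synthesising enzyme of the mesoderm, were the only genes of the coelomic and gonadal list at least 2-fold higher than in both other E11.5 pools. Wt1 had 47 counts in 37 wells (58.2 CPM), against 4.93 CPM in the VE-cadherin-positive AGM pool, 5.32 CPM in the yolk sac pool and 15.3 CPM at E9.5. Aldh1a2 had 31 counts in 25 wells (38.4 CPM), against 7.39 CPM, 1.33 CPM and 52.6 CPM in the same pools. Both genes are also expressed in mesenchyme.

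The keratins were low. Krt18 had 12 counts (14.9 CPM), against 120 CPM in the yolk sac pool and 38.9 CPM at E9.5, and Krt8 6 counts (7.43 CPM), against 89.1 CPM in the yolk sac pool and 21.4 CPM at E9.5. Epcam had 5 counts in 5 wells, Pax2 8 in 7 wells and Pax8 3 in 3 wells. Pax2 and Pax8 are the transcription factors of the mesonephric duct and tubules.

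A few single wells held several epithelial genes, together with genes of other types. Coelomic well 4 held 4 counts of Wt1, 2 of Gata4, 2 of Lhx9 and 1 of Nr5a1, genes of the early gonad, and also 3 mesenchymal, 3 muscle and 4 skeletogenic genes, among them Col2a1 with 5 counts. Coelomic well 1 held 6 of the 14 genes, among them Gata4 and Nr5a1, with 1 count each, and 5 mesenchymal genes. One well held 2 counts of Krt18 and 1 of Grhl2 with 4 of Sim1, 1 of Gata3 and 1 of Emx2, which are genes of the mesonephric duct. That well also held 4 mesenchymal, 4 skeletogenic and 2 endothelial genes. Cdh6, a cadherin of kidney precursors, had 71 counts in 39 wells, but its highest well, with 16, was skeletogenic well 1.

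One well stood out for blood. It had 4 counts of Laptm5, 2 of Cd52, 2 of Tyrobp and 1 each of Ptprc, Fcer1g and Coro1a. The 12 macrophage and blood genes with at least 20 counts in either AGM pool of E11.5 were all lower in the negative pool, against 10.6% of all genes tested. Of the 12, Mrc1 alone reached 20 counts in the negative pool, with 22, so the count rule favoured a lower call.

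Genes of secreted factors. Ptn, a heparin-binding growth factor, had 1195 counts in 79.9% of wells (1480 CPM), against 143 CPM in the VE-cadherin-positive AGM pool, 130 CPM in the yolk sac pool and 502 CPM at E9.5. Cxcl12, the chemokine that retains haematopoietic stem cells in their niche, had 273 counts in 37.3% of wells (338 CPM), against 39.4 CPM, 62.5 CPM and 116 CPM in the same pools. Of 18 niche ligand genes, 9 of 13 with at least 20 counts were higher than in the VE-cadherin-positive AGM pool, 9 of 14 than in the yolk sac pool and 9 of 13 than at E9.5. The shares of all genes called higher were 20.2%, 17.6% and 16.1%.

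Kitl, stem cell factor, had 42 counts (52.0 CPM) and was the 1 niche ligand lower than in the VE-cadherin-positive AGM pool (118 CPM). Igf1 had 266 CPM, against 148 CPM, 63.8 CPM and 10.7 CPM at E9.5. Wnt5a had 33.4 CPM, against 9.85 CPM in the VE-cadherin-positive AGM pool, 2.66 CPM in the yolk sac pool and 25.2 CPM at E9.5. Among retinoid genes Crabp2 (204 CPM) was higher than in both other E11.5 pools and lower than at E9.5 (572 CPM), while Rarb (92.9 CPM) was higher than in both other E11.5 pools and under 2-fold apart from E9.5 (62.5 CPM).

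Hox genes of groups 5 to 9, which mark trunk position, summed to 431 CPM in the pool against 294 CPM at E9.5, and groups 10 to 13, of the posterior trunk, to 48.3 CPM against 9.15 CPM. Groups 1 to 4 summed to 159 CPM against 167 CPM. Hoxa7, Hoxa9, Hoxb6 and Hoxc5 were higher than in both other E11.5 pools. The labels do not say where along the trunk the AGM was cut at each stage.

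All 4 nuclear factor I genes were higher than at E9.5 (median log2 4.39). In the control wells of stem cell RNA Nfia was also higher on the E11.5 chip, with 7 counts against 2. That log2 ratio was 2.94 (0.55 to 6.24), and that of Nfib, with 8 control counts on each chip, 1.13 (-0.48 to 2.74). Nfib had 764 CPM against 45.0 CPM and Nfix 31.0 CPM against 1 count at E9.5, while Nfic had 39.6 CPM against 12.2 CPM. None of the 4 was 2-fold apart from the VE-cadherin-positive AGM pool.

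Genes that went together across wells were few. Of 3998 genes in at least 10% of the 338 wells, the median r of all pairs was 0.01, the 99th percentile 0.154 and the highest 0.38, and 42 pairs reached 0.3. Over the E9.5 negative wells 2 of the 41 pairs that could be measured there reached 0.3 as well, Lars2 with Gphn (0.46) and with Camk1d (0.40), and the median of the 41 was 0.05. All values of r are over wells that share 1 chip and 1 sorted pool.

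Cenpe, a kinetochore motor, gave r of 0.35 with Aspm, 0.32 with Cenpf and 0.30 with Top2a. Over 153 pairs of mitosis genes the median r was 0.124. The same pairs gave 0.0817 in the VE-cadherin-positive AGM wells, 0.0592 in the yolk sac wells and 0.0161 in the E9.5 wells. These genes too were chosen by detection in this pool, so the medians of the other wells are not a like comparison. None of the 20 mitosis genes was 2-fold apart from either other E11.5 pool. Mki67 had counts in 174 wells and Top2a in 210.

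The list of immediate early and stress genes went together less tightly, with a median r of 0.106 over 36 pairs and 0.22 for Fos with Jun. For the same genes, chosen by detection in this pool, the median was 0.114 in the VE-cadherin-positive AGM wells and 0.00 in the E9.5 wells. Of 13 genes of the list 9 were higher than at E9.5, against 16.1% of all genes. They were Fos, Fosb, Jun, Junb, Jund, Egr1, Ier2, Atf3 and Btg2, transcription factors and regulators that cells switch on quickly after a stimulus. The other 4, the heat shock genes Hspa1a, Hspa1b, Hsp90aa1 and Hspa8, were under 2-fold apart. Hspa1a and Hspa1b were lower than in both other E11.5 pools, where 3 genes of the list (VE-cadherin-positive AGM) and 1 (yolk sac) were higher.

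Most of the 42 pairs joined genes of no shared list. The highest, Pros1 with Cdk8, gave 0.38 (E9.5 -0.01), Lars2 with Gphn 0.38, Cog5 with Gucy1a2 0.37 (E9.5 -0.10) and March3 with Bmp2k 0.37, the last with counts of both genes in 10 wells. Igf2 and H19, imprinted neighbours, gave 0.26 (E9.5 -0.07), with 1525 and 2935 CPM in the pool. Xist and Tsix, which overlap on opposite strands, gave 0.34, and reads of the pair cannot be told apart where counting did not use strand. Muscle genes gave lower values, 0.23 for Actc1 with Myl1 and 0.14 for Actc1 with Ttn, with counts of both genes in 4 and 15 wells.

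**Figure D4:**
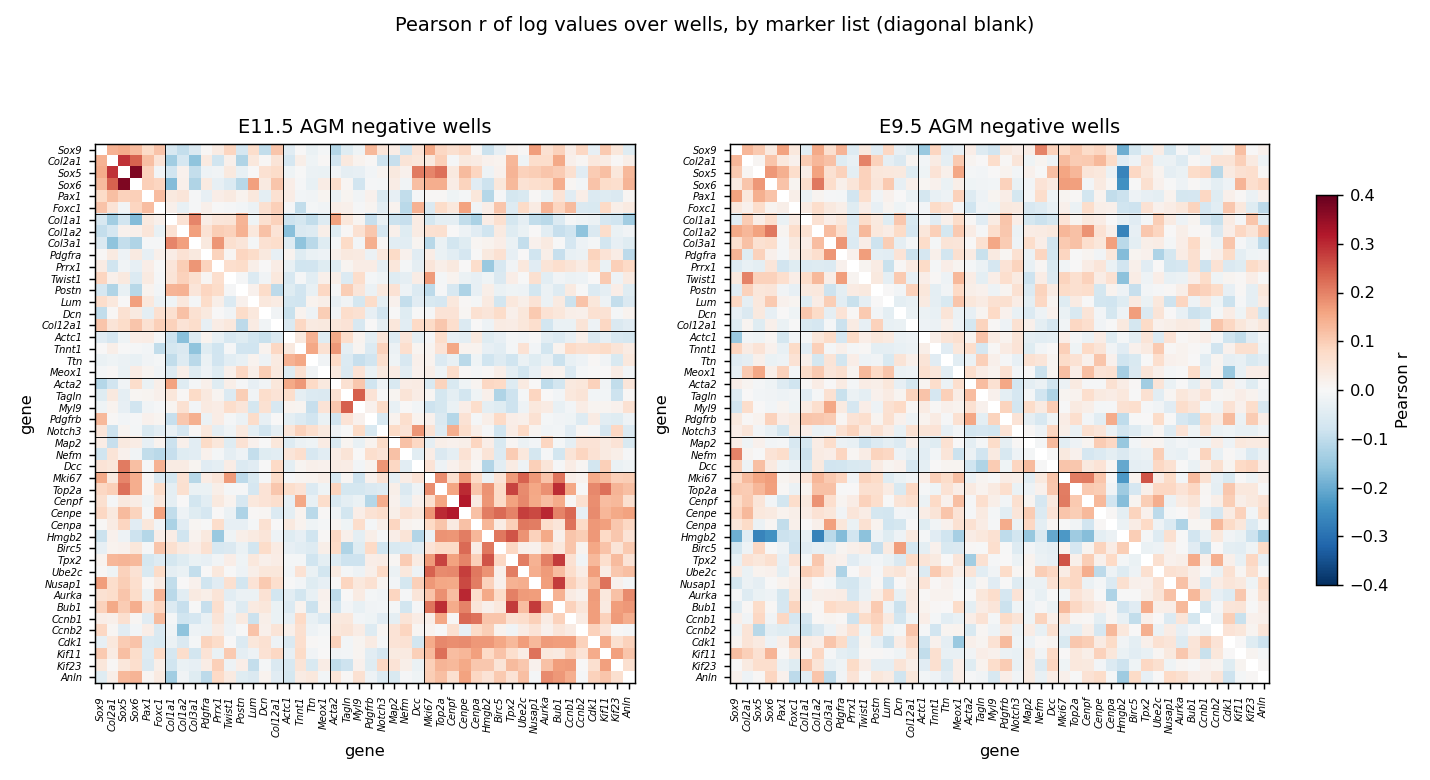
Pearson r between marker genes over the E11.5 AGM negative wells (left) and the E9.5 AGM negative wells (right), with genes ordered by list and lists boxed. At E11.5 Sox5 with Sox6 is at 0.37 and Cenpf with Cenpe at 0.32, and Col1a1 with Col3a1 is at 0.19.

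Xist had counts without Y-linked ones in 171 wells (50.6%), Y-linked genes without Xist in 37, both in 33 (9.76%) and neither in 97. Xist had 18 counts in the 47 negative control wells.

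Clusters of the wells, made from 1500 variable genes of this pool alone, are given as a description. Of 8 clusters, 2 with 31 and 85 wells took the name mesenchymal-like, the larger led by Mgp and Col1a1. The 24 wells of another were skeletal muscle-like, led by Myl1, Ttn, Mylpf and Actc1, and muscle wells 1, 2, 4 and 5 were among them. Few of the 24 wells carried these genes, with Myl1 and Actc1 counted in 5, Mylpf in 7 and Ttn in 12. A single well held 63 of the cluster's 72 Actc1 counts, and a single well 43 of its 53 Mylpf counts. A cluster of 50 wells carried Pax7, Tnnt1 and Meox1 and took the same name by rule. The other 4 stayed unnamed. One of these, with 22 wells, had 8 neuron genes among its markers but was led by Spint2, of which 1 well held 39 of the cluster's 45 counts. Another, with 52 wells, had 7 skeletogenic markers, among them Sox9, Col2a1 and Pax1, but was led by Adamts19, Twist2 and Ptk7.

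Cluster borders moved with the settings. The mesenchymal-like clusters held 116 of 338 wells (34.3%, 29.3 to 39.7), and between 0 and 27.9% under 7 other settings, while a muscle-named cluster was found under all 8. Cluster 5, with the skeletogenic markers, had a median of 29.5% of counts in genes over 100 kb, against 14.3% to 20.5% in the other 7.

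Against the VE-cadherin-positive AGM pool 1522 of 7540 genes (20.2%) were at least 2-fold higher and 798 (10.6%) lower, 30.8% in all. Against the yolk sac negative pool 1378 of 7850 (17.6%) were higher and 887 (11.3%) lower, 28.9% in all, and against the E9.5 negative pool 1397 of 8652 (16.1%) were higher and 911 (10.5%) lower, 26.7% in all. The share of calls that were higher was 65.6%, 60.8% and 60.5% in that order. It was 86.7% and 88.6% over the E11.5 pools when totals of all counts, haemoglobin included, were used, and 48.5% over the yolk sac pool and 46.4% over the E9.5 pool under TMM scaling. The median log2 ratio of all genes was 0.23, 0.22 and 0.10, against 0.86, 0.90 and 0.04 with totals of all counts and 0.16, 0.02 and -0.11 with TMM.

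The genes with the clearest excess over the VE-cadherin-positive AGM pool were Mfap4, Actc1, Bmpr1b, Crabp1, Sulf1, Gpc6, Il1rapl2, Ebf2, Sema3c and Tenm3. Mfap4, a protein of elastic microfibrils, had 136 counts in 28.7% of wells and none in the VE-cadherin-positive AGM pool. Its log2 ratio was 4.51 against the floor of 3 counts, with a lower 95% bound of 4.19. Gpc6, a cell surface proteoglycan, was in 86.7% of wells (2171 CPM against 165 CPM). Sulf1, which edits heparan sulphate, had 405 CPM against 17.2 CPM. The genes with the clearest deficit were of neutrophils and other myeloid cells (S100a8, S100a9, Stfa1, Lyz2, Rac2, Fcrls) and endothelium (Cd93, Mmrn2, Tie1, Cdh5).

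Over the yolk sac negative pool the leading genes were Crabp1, Dcc, Il1rapl2, Lsamp, Foxp2, Nkain3, Sulf1, Adgrb3, Hoxa7 and Crabp2. Foxp2, a forkhead transcription factor, was in 55.0% of wells (691 CPM against 35.9 CPM). The lowest were Hand1, with no count against 126 in the yolk sac pool, Colec10, Rhox5, Dsp, and the visceral endoderm genes Apoa1, Afp, Apoa2, Ttr, Rbp4 and Fgb. Afp had 31 counts in the 47 negative control wells of the chip.

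Over the E9.5 pool the leading genes were Kcnd2, Il1rapl2, Pcdh9, Nfia, Pros1, Col12a1, Afp, Adgrg6, Igf1 and Nfib, and the lowest Gapdh, Enpp6, Lnx1, Klf9, Ftl1, Eno1, Lin28a, Ndufb8, Mrpl23 and Tex21. Some of these also differed between the 2 chips in control wells that held the same stem cell RNA. Pros1 was 4.85 higher at E11.5 on the log2 scale in the cells and 9.33 in the controls. Afp was 4.905 higher in the cells. In the controls Afp had 38 counts on the E11.5 chip and 0 on the E9.5 chip, 4.79 against the floor of 3. Gapdh was -6.06 in the cells and -5.35 in the controls, and Eno1 -4.02 and -2.87. Of the genes called higher, 96 had at least 20 control counts and 38 of these (39.6%) were 2-fold apart the same way there, and for those called lower 65 of 239 (27.2%). Of all tested genes with as many control counts, 502 of 2041 (24.6%) were 2-fold apart there in either direction. Lin28a, a pluripotency and growth RNA-binding protein, was -6.13 (-11.4 to -3.63) in the cells and -1.04 in the controls.

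Gene length moved with stage. Genes called higher at E11.5 had a median span of 68.4 kb, those called lower 18.2 kb and all tested 32.0 kb. Genes over 100 kb took a median of 18.2% of counts per well in the pool, against 19.9% in the VE-cadherin-positive AGM wells, 14.3% in the yolk sac wells and 10.3% at E9.5. The control wells ran the other way, with 5.52% on the E11.5 chip against 7.40% on the E9.5 chip. The part of gene length in the stage comparison was not tested.

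Of 7165 genes tested in all 3 comparisons, 405 (5.65%) were at least 2-fold higher in the pool each time. The 12 with the largest smallest ratio were Il1rapl2, Ttn, Fibin, Bmper, Kirrel3, Il1rapl1, Col25a1, Eya4, Nkain2, Pcdh9, Epha3 and Lsamp. Several are adhesion or receptor proteins first known from neurons (Kirrel3, Pcdh9, Epha3, Lsamp and Il1rapl1), Bmper binds BMPs outside cells, and Eya4 is a transcriptional cofactor.

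Il1rapl2, a receptor of the interleukin 1 family, had 150 counts (186 CPM), against 2, 4 and 3 counts in the VE-cadherin-positive AGM, yolk sac and E9.5 pools. Its counts were in 43 wells, but the top 4 wells held 85 of them (56.7%) and 1 well 51. Col25a1 was spread wider, with 256 counts in 110 wells, and Fibin, a secreted protein, with 147 in 89 wells. Fibin had log2 ratios of 3.62, 4.51 and 4.20 over the 3 pools. It was the 1 short gene of the 12, at 2.07 kb, and the others spanned 248 kb to 2197 kb. The median span was 106 kb for the 405 genes and 35.7 kb for all genes tested in the 3 comparisons.

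**Figure D5:**
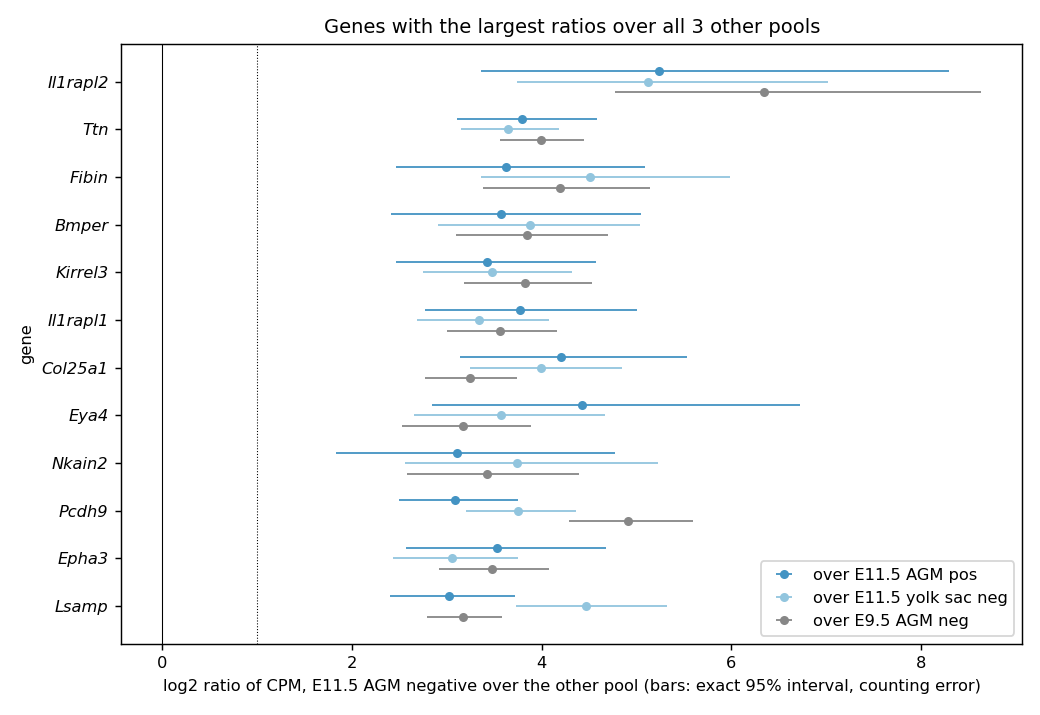
Log2 ratio of CPM in the E11.5 AGM negative pool over the E11.5 AGM positive, E11.5 yolk sac negative and E9.5 AGM negative pools for the 12 genes with the largest smallest ratio, with exact 95% intervals as bars and a dotted line at 2-fold. All intervals lie above that line, and that of Il1rapl2 runs from 3.36 to 8.30 over the E11.5 AGM positive pool.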

How the data were processed

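Counts per gene and well were used as deposited, 1 table of whole-number counts per chip with 20823 gene rows at E11.5 and 20575 at E9.5. Per the submitters' processing notes, the authors used FastQC, cutadapt and STAR with mm10 (GRCm38). Tool versions, how reads were counted, the annotation, strandedness and any molecular identifiers are not given in the sources used here. Wells were assigned by the deposited stage, tissue and gate, and the chips shared 473 well barcodes, so wells were kept apart by chip.

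Each pool's counts were added up over its wells, and CPM taken outside haemoglobin, mitochondrial and ribosomal RNA rows. Pools were compared over genes present in both tables where stages differ, as log2 ratios with exact conditional binomial 95% intervals. Genes entered when the higher pool had 20 counts or more and were called at 2-fold; against 0 counts the floor was 3 per pool. Named genes were the 10 in each direction whose interval bound nearest to 0 was farthest from it (at least 50 counts and 10% of wells, unnamed models left out), and the 12 higher than in all 3 pools with the largest smallest ratio. The 36 gene lists, the members and the rules were chosen with earlier results of these data known. Of 458 list genes 432 had a row at E11.5, and genes without a row were not analysed here.

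Correlations are Pearson r of log1p values per 10000 counts. Genes and pairs were chosen by detection or r in this pool and then measured in the other pools, so that comparison is uneven. Leiden clusters used 1500 variable genes, 20 principal components, 10 neighbours and resolution 1. A cluster was named from at least 3 detected markers (in 10% of wells, 1.5 times the level outside), more than for any other type, unless its 10 leading genes held more markers of another type. Scrublet marked 5 of the 338 wells as doublets, and they were kept. Alternatives were other filters, totals, scalings, count minima, thinning depths and cluster settings. Another 3, without wells of 2 endothelial markers, without muscle well 1 and without genes that differ in control wells, were chosen after seeing the data. Python 3.11.15, scanpy 1.11.5, scipy 1.17.1, igraph 0.11.9, R 4.3.3 and edgeR 4.0.16 (TMM factors only) were used. The ratios were also tested on simulated pool counts, drawn without spread between wells. That test does not cover genes whose counts sit in a few wells.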

Additional observations from a re-analysis of the deposited data

How the results depend on the processing

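The number of genes at least 2-fold apart, 2320 from the VE-cadherin-positive AGM pool, 2265 from the yolk sac negative pool and 2308 from the E9.5 negative pool, was 3689, 4023 and 2283 with totals of all counts. It was 431, 552 and 616 with at least 100 counts, and 7531, 7945 and 6106 with no minimum, where most genes rest on a few counts. Other well filters, equal weight per well and TMM kept these counts within 1.5 times. Without wells of 2 endothelial markers the first was 2276, and without genes that differ in the control wells the third was 2205. The mesenchymal-like share of wells, 34.3%, was 0% at resolution 0.5, with 15 neighbours and with wells of at least 1000 genes, 13.9% at resolution 1.5, 16.6% with 30 components, 5.62% with 1000 variable genes and 27.9% with at most 20% mitochondrial counts. The cause was not tested. Wells with 2 neuron genes, 6.77%, were 19.5% without thinning and 15.3% thinned to 2000 counts. They were 33.5% with 1 gene and 3.23% with 3 genes required. The 42 gene pairs with r of at least 0.3 became 97 by Spearman's rho, 344 in wells of at least 1000 genes and 47 without wells marked as doublets. For the marker genes, 109 log2 ratios under these alternatives stayed within the interval of the reported value and 7 did not, with no called one changing sign. With totals of all counts Nfia was at 1.503 over the VE-cadherin-positive AGM pool (reported 0.87), past 2-fold, and 1.86 over the yolk sac pool (1.18), and Col12a1 at -0.39 there (-1.07), no longer past it. With wells of at least 1000 genes Col12a1 was at 5.39 (3.73) and Crabp1 at 5.82 (4.47) over the VE-cadherin-positive AGM pool. Twist1, with no count in that pool, was at 2.42 (3.28) against the floor. With TMM Crabp1 was at -0.37 (-0.16) over the E9.5 pool. Without muscle well 1 Actc1 was at 0.08 (1.06) over the E9.5 pool, no longer past 2-fold. Over the VE-cadherin-positive AGM pool Actc1 was then at 3.41 (4.40), both against the floor. No paired analysis was possible because each group is 1 pool. With 2083.5 counts per well at the median, genes under about 20 counts per pool and types in a few wells are not resolved.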
